A study of Mus musculus with 18 samples.

Results

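Of the 22238 gene symbols counted in these libraries, 48 are collagen or lysyl oxidase genes: 43 collagen chains, taken as every symbol of the form Col-number-a-number, and the 5 lysyl oxidases Lox, Loxl1, Loxl2, Loxl3 and Loxl4. Total RNA of whole uterus was sequenced from ovariectomized adult mice of the CD-1 stock, which lack the ovarian source of estrogen and progesterone. Animals received doxorubicin (DOX, an anthracycline used in chemotherapy) or phosphate-buffered saline (PBS), and within each arm estradiol (E2), progesterone (P4) or oil (OIL), so that the groups were DOX E2, PBS E2, DOX P4, PBS P4, DOX OIL and PBS OIL, with 3 libraries each. No dose, time or statement that the samples are separate animals is given in the labels, so a p-value here speaks of the spread among these samples, which may be technical. Libraries held 18042357 to 39783785 counts. Because the tissue was homogenised whole, fewer cells of a type and less RNA per cell cannot be told apart.

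Collagen chains wind into trimers outside or inside fibrils. Fibrillar collagens (types I, III, V and others) form the tensile fibres of the stroma and of the muscle layer, type IV forms the sheet-like network of basement membranes under epithelium and around muscle cells and vessels, and type VI forms beaded filaments close to cells. Fibril-associated collagens sit on the surface of fibrils. Lysyl oxidases are copper enzymes that oxidise lysines of collagen and elastin, the step that leads to covalent cross-links. The uterine matrix is known to be remodelled under the ovarian steroids.

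Low counts removed 3 of the 48 genes before testing: Col9a1, Col10a1 and Col19a1, with 19, 6 and 19 reads in all libraries together. The other 45 were tested among 15494 genes with the quasi-likelihood test of edgeR, adjusted by the Benjamini-Hochberg method over all of them, and a gene was called at an adjusted p under 0.05. The text writes "rose" or "fell" only of called genes. By class the tested genes were 11 fibrillar, 6 type IV, 6 type VI, 7 fibril-associated, 10 other collagens and the 5 lysyl oxidases. Levels are in CPM, which relates a count to the library total after TMM scaling (the trimmed mean of M values), and levels of different genes are set side by side only per kilobase of exon length. Fold changes are on the log2 scale with their SE.

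The type IV genes lie in head-to-head pairs, and their start regions are shown for all but Col4a3. Any part of these sequences in the levels reported below was not tested. In GENCODE M21 on build GRCm38, Col4a1 (chromosome 8, 11198423 to 11312826, minus strand) and Col4a2 (chromosome 8, 11312805 to 11449287, plus strand) overlap by 22 bases at their starts. Col4a4 (chromosome 1, 82448423 to 82586849, minus strand) and Col4a3 (chromosome 1, 82586921 to 82722059, plus strand) are 71 bases apart. Col4a6 (chromosome X, 141165403 to 141474076, minus strand) and Col4a5 (chromosome X, 141475385 to 141689234, plus strand) are 1308 bases apart. The sequences run 5′ to 3′ on the strand of the gene, from 250 bases before to 50 bases after the start in RefSeq (GRCm38.p6). Their windows are chr8:11312777-11313076 for Col4a1, chr8:11312555-11312854 for Col4a2, chr1:82586800-82587099 for Col4a4, chrX:141475169-141475468 for Col4a5 and chrX:141474027-141474326 for Col4a6. Capitals mark the GC box (GGGCGG) and the CCAAT box (CCAAT) on either strand.
Col4a1: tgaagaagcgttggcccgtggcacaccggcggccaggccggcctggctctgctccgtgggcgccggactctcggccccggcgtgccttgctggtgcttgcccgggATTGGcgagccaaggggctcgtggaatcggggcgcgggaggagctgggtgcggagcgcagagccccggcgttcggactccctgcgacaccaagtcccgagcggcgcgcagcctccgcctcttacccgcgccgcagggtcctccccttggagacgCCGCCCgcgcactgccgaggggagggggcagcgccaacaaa
Col4a2: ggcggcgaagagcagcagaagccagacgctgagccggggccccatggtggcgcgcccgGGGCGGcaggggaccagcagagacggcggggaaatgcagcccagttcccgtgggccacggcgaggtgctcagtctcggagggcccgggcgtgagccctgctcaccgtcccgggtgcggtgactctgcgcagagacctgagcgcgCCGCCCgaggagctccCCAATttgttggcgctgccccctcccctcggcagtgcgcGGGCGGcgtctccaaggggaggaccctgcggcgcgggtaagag
Col4a4: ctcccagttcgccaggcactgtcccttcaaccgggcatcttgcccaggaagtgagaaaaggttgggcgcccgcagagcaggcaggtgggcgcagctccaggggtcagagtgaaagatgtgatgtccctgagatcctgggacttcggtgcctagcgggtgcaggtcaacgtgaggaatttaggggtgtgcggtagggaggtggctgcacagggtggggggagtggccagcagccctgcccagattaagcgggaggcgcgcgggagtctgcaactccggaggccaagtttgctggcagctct
Col4a5: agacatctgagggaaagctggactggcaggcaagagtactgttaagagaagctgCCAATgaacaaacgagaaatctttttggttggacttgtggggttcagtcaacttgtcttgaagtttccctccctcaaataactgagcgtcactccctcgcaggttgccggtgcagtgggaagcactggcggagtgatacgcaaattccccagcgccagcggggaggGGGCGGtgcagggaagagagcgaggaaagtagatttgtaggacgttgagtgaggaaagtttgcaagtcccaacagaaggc
Col4a6: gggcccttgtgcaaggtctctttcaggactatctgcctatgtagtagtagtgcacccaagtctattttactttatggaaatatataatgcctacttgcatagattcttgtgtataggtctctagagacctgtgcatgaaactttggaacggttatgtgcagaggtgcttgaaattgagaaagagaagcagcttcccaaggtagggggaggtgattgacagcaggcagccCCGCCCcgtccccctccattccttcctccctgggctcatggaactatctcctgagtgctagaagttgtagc

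The Col4a1 and Col4a2 windows share 78 bases. Col4a2 had 3 GC boxes and 1 CCAAT box, Col4a1 and Col4a5 had 1 of each, Col4a6 had 1 GC box and no CCAAT box, and the Col4a4 window held neither motif. A GC box was found in 35.7% of the 32851 promoters of this length in the RefSeq table and in 24 of 39 promoters of the 36 collagen and lysyl oxidase genes matched there, and a CCAAT box in 37.4% and in 13 of 39. The palindrome of the estrogen response element (GGTCANNNTGACC) was found in 0.07% of all promoters and in 0 of the 39, the progesterone receptor half-site (TGTTCT) in 19.0% and in 2 of the 39, and the TATA box (TATAAA) in 13.6% and in 5 of the 39. These are matches of letters, not binding sites.

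With estradiol, 4 of 6 type VI chains rose in either arm, and more fibrillar chains fell than rose. Under PBS, 6 of 11 fibrillar chains fell with all libraries and 4 without PBS OIL replicate 2. Over all classes the shares of genes that changed were near those of all genes. In E2 against OIL under PBS, 12 of the 45 genes rose and 18 fell, where 29.6% of all tested genes rose and 31.9% fell. The median log2 change was -0.41, against -0.09 over all tested genes. Under DOX, 13 rose and 18 fell, against 35.1% and 37.5% of all tested genes. In both arms the same 12 genes rose and 16 fell, and 0 changed in opposite directions. The matching shares of all tested genes called in both arms were not counted. Scaling by library totals shifted the median of all genes to -0.28 under PBS and -0.39 under DOX, and gave 3548 rises and 6313 falls among all genes under PBS, against 4583 and 4936 with TMM, and 4004 and 7481 under DOX, against 5442 and 5812. The 45 genes then held 11 rises and 20 falls under PBS, and 13 and 22 under DOX.

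**Figure D1:**
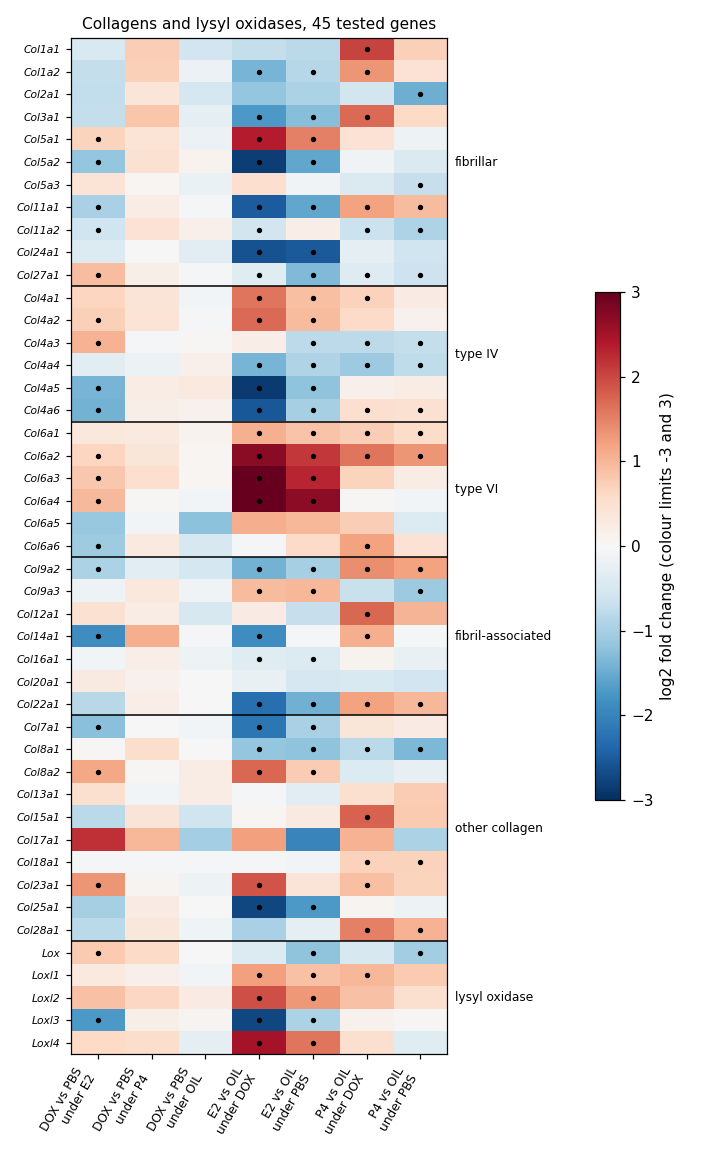
Log2 fold changes of the 45 tested genes (rows, grouped by class) in 7 comparisons (columns). Red is higher in the group named first, blue is lower, colours saturate at -3 and 3, and a dot marks a call. The E2 columns carry the most dots, with 12 rises and 18 falls under PBS, and the columns of DOX under P4 and under OIL carry none.

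Type VI collagen, the filament of the pericellular matrix, rose with E2 in 4 of its 6 chains in either arm. Of all tested genes 29.6% rose under PBS and 35.1% under DOX. The class summed to 5293, 4426 and 5582 CPM in the PBS E2 libraries, against 1290, 1814 and 1508 CPM in the PBS OIL libraries. Each PBS E2 library was above each PBS OIL library, and how often sums of other genes separate in this way was not counted. None of the 6 fell in E2 against OIL, in either arm. Those that rose in both arms were Col6a1, Col6a2, Col6a3 and Col6a4, while Col6a5 and Col6a6 ranged from 1.47 to 41.7 CPM over all libraries.

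Col6a4 changed most among them, a chain that takes the place of Col6a3 in some trimers. It had 590, 521 and 838 CPM in the PBS E2 libraries, against 132, 61.2 and 111 CPM in the PBS OIL libraries (log2 2.68, SE 0.28, adjusted p = 6.6e-07 in edgeR). It had 1610, 1018 and 1200 CPM in the DOX E2 libraries, the highest of all groups. Under P4 it stayed at 85.7, 104 and 107 CPM with DOX and at 102, 74.2 and 111 CPM with PBS.

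Col6a3, the largest chain, had 2929, 2849 and 2896 CPM in the DOX E2 libraries and 2008, 1230 and 1682 CPM in the PBS E2 libraries, against 218, 447 and 348 CPM in the PBS OIL libraries. Col6a2 had 2475, 2012 and 2142 CPM in the DOX E2 libraries and 1377, 1307 and 1537 CPM in the PBS E2 libraries, against 232, 424 and 314 CPM in the PBS OIL libraries. Both rose with E2 under PBS, by log2 2.28 and 2.12. Col6a1 had 1272, 1327 and 1483 CPM in the PBS E2 libraries, against 686, 848 and 710 CPM in the PBS OIL libraries, a rise of log2 0.86 (SE 0.13). The chains therefore moved by unequal amounts: per exon length the Col6a1 to Col6a2 ratio was 1.45 ± 0.01 in DOX E2 libraries and 1.84 ± 0.09 in PBS E2 libraries, against 4.55 ± 0.40 in DOX OIL and 4.58 ± 0.94 in PBS OIL libraries (SD, n = 3 each).

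With DOX under E2 the class sum was 8948, 7413 and 7892 CPM, against 5293, 4426 and 5582 CPM with PBS. In this comparison Col6a2 (log2 0.65, SE 0.20), Col6a3 (log2 0.82, SE 0.28) and Col6a4 (log2 0.97, SE 0.26) rose and Col6a6 fell (log2 -1.08, SE 0.30), while Col6a1 gave log2 0.31 (SE 0.13, adjusted p = 0.062 in edgeR, called by DESeq2 and, in edgeR, without DOX E2 replicate 2, at log2 0.38). Leaving out DOX E2 replicate 1 ended the calls of Col6a4 (log2 0.75, adjusted p = 0.051) and Col6a2 (log2 0.54, adjusted p = 0.081), and leaving out PBS E2 replicate 2 ended that of Col6a2 (log2 0.60, adjusted p = 0.066). The Col6a3 call was lost in 5 of the 6 fits that left out 1 of the libraries compared, all but that without PBS E2 replicate 1. The lost calls had log2 0.65 to 0.84 and adjusted p of 0.054 to 0.12. Col6a6, a low chain, had 21.1, 8.36 and 10.4 CPM in DOX E2 libraries, against 18.9, 34.3 and 31.1 CPM in PBS E2 libraries, and the groups overlap. The E2 by DOX interaction, which asks whether E2 acted differently in the arms, called 0 of the 6 genes. Of all tested genes it called 10.1% higher and 12.8% lower. Col6a4 was nearest with log2 1.05 (SE 0.37, adjusted p = 0.050). Without PBS OIL replicate 2 it was called, at log2 1.31 (adjusted p = 0.011), and also without DOX OIL replicate 1, PBS E2 replicate 3 or DOX E2 replicate 2, at log2 1.21, 1.28 and 1.19.

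Type IV collagen split by gene pair. The network built from Col4a1 and Col4a2 is found in all basement membranes, while chains from Col4a3, Col4a4, Col4a5 and Col4a6 build networks of restricted tissues, with Col4a5 and Col4a6 known from smooth muscle. Under PBS, E2 raised the Col4a1 and Col4a2 pair (log2 0.90, SE 0.25, and 0.95, SE 0.26) and lowered Col4a3, Col4a4, Col4a5 and Col4a6 (log2 -0.80, -0.89, -1.20 and -0.99). These 6 calls held in each fit that left out 1 of the libraries compared.

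Col4a1 had 934, 759 and 777 CPM in the DOX E2 libraries and 688, 422 and 477 CPM in the PBS E2 libraries, against 194, 409 and 250 CPM in the PBS OIL libraries. Col4a2 had 732, 636 and 645 CPM in the DOX E2 libraries and 539, 331 and 348 CPM in the PBS E2 libraries, against 151, 302 and 180 CPM in the PBS OIL libraries. The ratio of these chains per exon length stayed between 1.06 and 1.35 in all 18 libraries. With DOX under E2, Col4a2 rose (log2 0.72, SE 0.26, adjusted p = 0.035 in edgeR) and Col4a1 gave log2 0.64 (SE 0.25, adjusted p = 0.053). The Col4a2 call was lost in 5 of 6 fits with 1 library omitted (log2 0.60 to 0.76) and held without PBS E2 replicate 1, where Col4a1 was called as well (log2 0.87, adjusted p = 0.016), as it was by DESeq2 and by limma voom with all libraries. Under library totals Col4a2 was at log2 0.61 and not called.

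Col4a5 had 19.1, 17.0 and 19.3 CPM in the DOX E2 libraries and 30.9, 59.1 and 55.3 CPM in the PBS E2 libraries, against 136, 133 and 137 CPM in DOX OIL and 111, 97.8 and 124 CPM in PBS OIL libraries. Col4a6 had 21.8, 22.1 and 23.9 CPM in the DOX E2 libraries and 49.0, 67.5 and 64.6 CPM in the PBS E2 libraries, against 138, 134 and 120 CPM in DOX OIL and 128, 101 and 130 CPM in PBS OIL libraries. Every DOX E2 library was below every PBS E2 library for both genes. The share of all tested genes that separate in this way was not counted. Both fell with DOX under E2 (Col4a5 log2 -1.39, SE 0.20, adjusted p = 9.3e-05, and Col4a6 log2 -1.41, SE 0.15, adjusted p = 1.0e-05 in edgeR), and the interaction was called for both (log2 -1.67, SE 0.27, and -1.54, SE 0.21), with 0 calls lost on leaving out 1 library. Their ratio per exon length stayed between 0.75 and 1.35 in all libraries, and that of Col4a5 to Col4a1 was 0.0250 in DOX E2 and 0.111 in PBS E2 libraries, against 0.587 in DOX OIL and 0.484 in PBS OIL libraries (group means).

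The Col4a3 and Col4a4 pair behaved otherwise. Col4a3 had 16.6, 18.8 and 15.8 CPM in the DOX E2 libraries, against 7.66, 7.59 and 9.80 CPM in the PBS E2 libraries. Col4a4 had 7.54, 4.75 and 7.64 CPM in the DOX E2 libraries, against 6.63, 9.38 and 9.38 CPM in the PBS E2 libraries. Col4a3 rose with DOX under E2 (log2 1.03, SE 0.19, adjusted p = 0.00078 in edgeR) and Col4a4 gave log2 -0.34 (SE 0.24, adjusted p = 0.28). The ratio of Col4a3 to Col4a4 per exon length was 2.35, 4.21 and 2.20 in the DOX E2 libraries, against 1.23, 0.862 and 1.11 in the PBS E2 libraries, and it lay between 0.735 and 1.25 in all libraries of the other 5 groups. The difference of this ratio between groups was not tested. In DOX OIL and PBS OIL libraries Col4a3 ranged from 13.3 to 17.7 CPM, so that its DOX E2 level lay at the level of the OIL groups. Its interaction was called (log2 1.0, SE 0.27, adjusted p = 0.017 in edgeR).

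**Figure D2:**
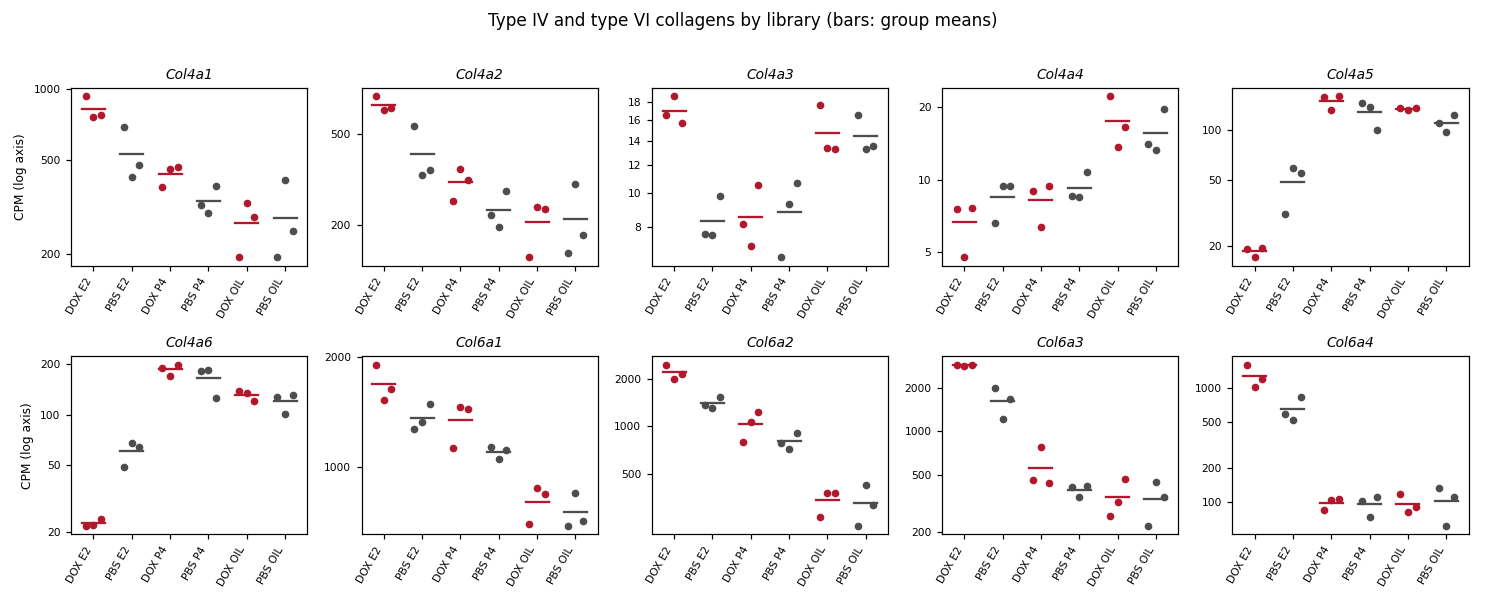
CPM (log axis) of the 6 type IV and of 4 type VI genes in each library, by group, with DOX in red, PBS in grey and bars at group means. Col4a1, Col4a2 and the type VI genes are highest in DOX E2, and Col4a5 and Col4a6 are lowest there, at 17.0 to 23.9 CPM.

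More fibrillar collagens fell than rose with E2, and type V split between its chains. Under PBS, 1 of 11 rose and 6 fell, where 29.6% of all tested genes rose and 31.9% fell, with a class median of log2 -0.95. Without PBS OIL replicate 2, 1 rose and 4 fell there, with a median of log2 -0.57. Under DOX, 1 rose and 7 fell, where 35.1% of all tested genes rose and 37.5% fell, with a median of log2 -1.16. Fibroblast markers fell in 5 of 6 genes and mesothelium markers in 4 of 4 in the same comparison under DOX, and in 1 of 6 and 1 of 4 under PBS. Fibroblast markers summed to 1652 to 2681 CPM in DOX E2, against 4537 to 5283 CPM in DOX OIL, and mesothelium markers to 84.9 to 158 CPM in DOX E2, against 250.2 to 334 CPM in DOX OIL. Their part in the fibrillar values was not tested. Type V collagen sits inside type I fibrils and sets their thickness, and its common trimer combines Col5a1 with Col5a2.

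Col5a1 (chromosome 2, 27886425 to 28039514) had 915, 793 and 1063 CPM in the DOX E2 libraries and 765, 442 and 547 CPM in the PBS E2 libraries, against 172, 184 and 189 CPM in DOX OIL and 178, 261 and 175 CPM in PBS OIL libraries. Col5a2 (chromosome 1, 45374321 to 45503282) had 41.9, 25.3 and 44.6 CPM in the DOX E2 libraries and 85.9, 93.2 and 72.3 CPM in the PBS E2 libraries, against 199, 298 and 300 CPM in DOX OIL and 198, 349 and 189 CPM in PBS OIL libraries. E2 thus raised Col5a1 under PBS (log2 1.51, SE 0.20) and lowered Col5a2 (log2 -1.55, SE 0.24). With DOX under E2 the genes moved apart further, with a rise of Col5a1 (log2 0.66, SE 0.19, adjusted p = 0.014 in edgeR) and a fall of Col5a2 (log2 -1.17, SE 0.24, adjusted p = 0.0015). The interaction was called for both, at log2 0.83 (SE 0.27, adjusted p = 0.040) for Col5a1 and -1.28 (SE 0.34, adjusted p = 0.014) for Col5a2.

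Per exon length, the Col5a1 to Col5a2 ratio was 24.7, 35.4 and 26.9 in the DOX E2 libraries, against 10.1, 5.36 and 8.54 in the PBS E2 libraries. In the P4 and OIL groups it was between 0.699 and 1.24 in all 12 libraries. The rise of Col5a1 with DOX under E2 was lost without PBS E2 replicate 2 (log2 0.49), PBS E2 replicate 3 (log2 0.61) or DOX E2 replicate 3 (log2 0.53), with adjusted p of 0.052 to 0.070, and its interaction in 8 of 12 such fits (log2 0.62 to 0.86 in those, all but the fits without PBS OIL replicate 1 or 3, PBS E2 replicate 1 or DOX E2 replicate 2) and under library totals (log2 0.72). The Col5a2 calls held in each of those fits.

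**Figure D3:**
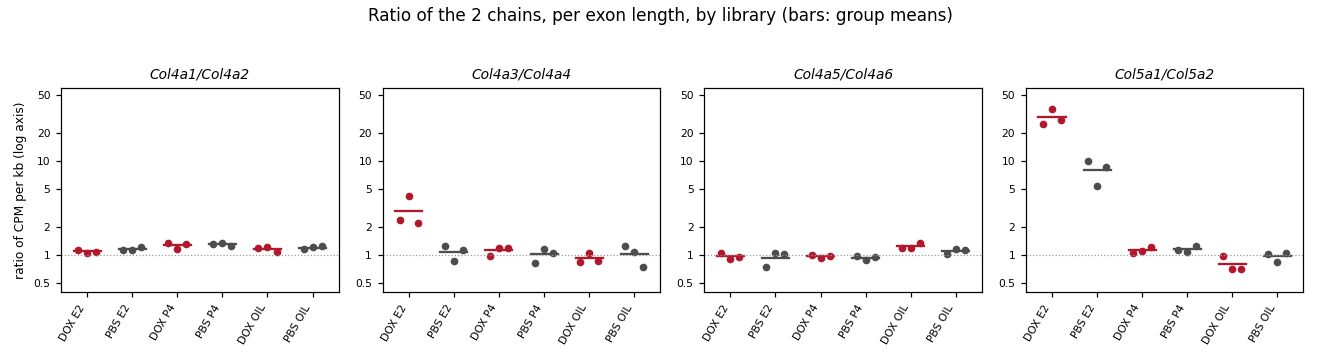
Ratio of CPM per kilobase of exon between the chains of 4 pairs (log axis) in each library, with DOX in red, PBS in grey, bars at group means and a dotted line at 1. Col4a1 to Col4a2 and Col4a5 to Col4a6 stay near 1 in every group, Col4a3 to Col4a4 is above 2 in the DOX E2 libraries alone, and Col5a1 to Col5a2 reaches 35.4 in DOX E2.

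Col27a1, a fibrillar collagen known from cartilage, had 70.6, 62.0 and 75.2 CPM in the DOX E2 libraries, against 34.3, 38.9 and 37.2 CPM in the PBS E2 libraries. It rose with DOX under E2 (log2 0.91, SE 0.11, adjusted p = 2.0e-05 in edgeR), the smallest p among the genes of the class there. E2 lowered it under PBS (log2 -1.32, SE 0.11) and under DOX (log2 -0.36, SE 0.11), and the interaction was called (log2 0.96, SE 0.15, adjusted p = 0.00071). Col11a1 (log2 -0.97, SE 0.32) and Col11a2 (log2 -0.59, SE 0.20), chains of the minor fibrillar type XI, fell with DOX under E2. Leaving out 1 library ended the Col11a1 call in 4 of 6 fits (log2 -1.02 to -0.72 in those), all but those without PBS E2 replicate 1 or DOX E2 replicate 2, and the Col11a2 call in 5 of 6 (log2 -0.66 to -0.36), all but that without PBS E2 replicate 2.

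The main fibre-forming genes Col1a1, Col1a2 and Col3a1, which encode types I and III, depended on 1 library. Col3a1 had 400, 352 and 316 CPM in the PBS E2 libraries, against 476, 1523 and 584 CPM in the PBS OIL libraries, with replicate 2 far above the other 2. Col1a2 had 270, 369 and 347 CPM in the PBS E2 libraries, against 307, 1013 and 470 CPM in the PBS OIL libraries. Col1a1 had 132, 259 and 210 CPM in the PBS E2 libraries, against 146, 721 and 191 CPM in the PBS OIL libraries. PBS OIL replicate 2 was the highest of its group in 8 of the 11 fibrillar genes, with a median ratio of 1.65 to the mean of the other 2 libraries, and in 5 of 5 lysyl oxidases, with 1.78. In type IV it was the highest in 2 of 6 genes and the lowest in 4, with a median ratio of 0.857. The 2 were Col4a1 and Col4a2, with ratios of 1.84 and 1.83. In type VI it was the highest in 4 of 6 genes and the lowest in 2, with a median ratio of 1.38. Among all tested genes it was the highest in 30.4% and the lowest in 32.4%. It also held 2968 CPM of adipocyte markers in sum, against 723 and 1227 CPM in replicates 1 and 3, and the part of this in the difference was not tested.

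With that library, E2 against OIL under PBS gave a fall of Col3a1 (log2 -1.27, SE 0.35) and Col1a2 (log2 -0.86, SE 0.32), and log2 -0.82 for Col1a1 (SE 0.46, adjusted p = 0.14 in edgeR). Without it the values were -0.57 for Col3a1 (adjusted p = 0.052), -0.24 for Col1a2 (adjusted p = 0.38) and 0.25 for Col1a1 (adjusted p = 0.52). The Col1a2 call also ended without PBS E2 replicate 1 (log2 -0.74, adjusted p = 0.10) or PBS E2 replicate 3 (log2 -0.90, adjusted p = 0.052), and Col1a1 was called without PBS OIL replicate 1 (log2 -1.19, adjusted p = 0.028). Under DOX, where that library enters the shared spread but not the fold changes, Col3a1 fell by 1.71 and Col1a2 fell by 1.39 on the log2 scale. Col3a1 had 237, 149 and 261 CPM in the DOX E2 libraries, against 548, 922 and 652 CPM in the DOX OIL libraries. The whole class without PBS OIL replicate 2 had 1 rise and 4 falls with E2 under PBS, with a median of log2 -0.57. Of all tested genes, 29.6% rose and 31.9% fell in this comparison with all libraries. The fold changes of DOX against PBS under E2 do not use the OIL groups, but the spread behind their p is shared by all 6 groups. There, Col3a1 gave log2 -0.72 (adjusted p = 0.11), Col1a2 -0.71 (adjusted p = 0.084) and Col1a1 -0.47 (adjusted p = 0.44) in edgeR. DESeq2 called Col1a2, limma voom Col1a2 and Col3a1, and edgeR under library totals Col1a2 (log2 -0.85).

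Without that library the E2 by DOX interaction called Col1a2 (log2 -1.15, against -0.53 with it) and Col3a1 (log2 -1.14, against -0.44 with it), and the count of fibrillar genes called was 1 higher and 3 lower, against 2 and 1. Type IV kept 1 higher and 2 lower, and type VI had 1 higher and 0 lower, against 0 and 0. With all libraries, the interaction called 10.1% of all tested genes higher and 12.8% lower. In E2 against OIL under PBS without PBS OIL replicate 2, 4 of 6 type IV genes still fell and 2 rose, and type VI had 5 rises in place of 4. With all libraries, 29.6% of all tested genes rose there and 31.9% fell.

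**Figure D4:**
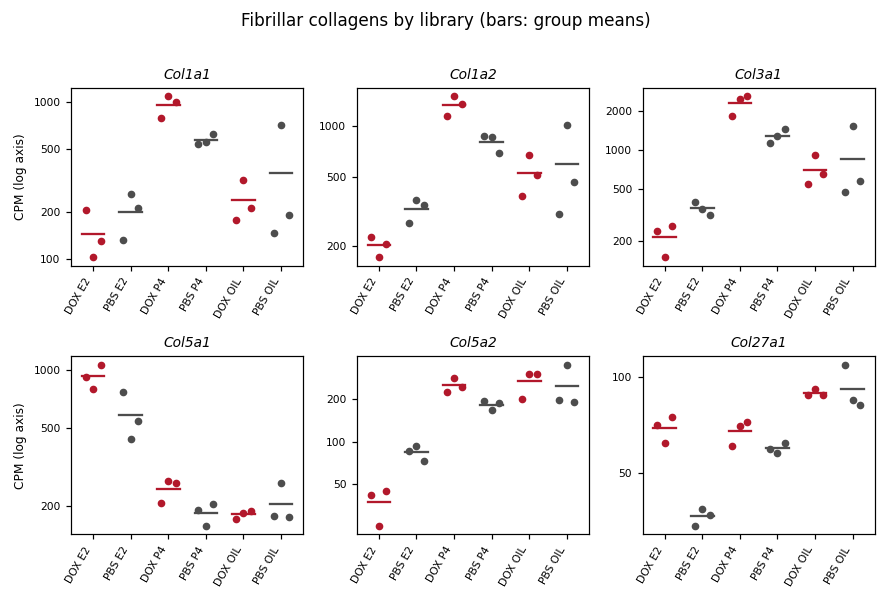
CPM (log axis) of 6 fibrillar genes in each library, with DOX in red, PBS in grey and bars at group means. Col5a1 is highest and Col5a2 lowest in DOX E2, Col1a1, Col1a2 and Col3a1 are highest in DOX P4, and the upper point of PBS OIL for the last 3 genes is replicate 2.

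Progesterone gave another pattern for the fibre-forming genes. Col3a1 had 1843, 2455 and 2616 CPM in the DOX P4 libraries and 1136, 1291 and 1456 CPM in the PBS P4 libraries, against 548, 922 and 652 CPM in DOX OIL. Col1a1 had 791, 1102 and 1012 CPM in the DOX P4 libraries and 538, 561 and 629 CPM in the PBS P4 libraries, against 177, 321 and 210 CPM in DOX OIL. Col1a2 had 1141, 1489 and 1339 CPM in the DOX P4 libraries and 866, 861 and 691 CPM in the PBS P4 libraries, against 387, 676 and 517 CPM in DOX OIL. In each of the 3 genes every DOX P4 library was above every PBS P4 library and every DOX OIL library. How many of all tested genes separate in this way was not counted. DOX against PBS under P4 called 0 of the 45 genes and 0% of all tested genes. P4 against OIL under DOX raised Col1a1 (log2 2.04, SE 0.48), Col3a1 (log2 1.70, SE 0.35) and Col1a2 (log2 1.33, SE 0.32). Under PBS the values were 0.71, 0.59 and 0.43, with adjusted p of 0.20 to 0.31, and without PBS OIL replicate 2 they were 1.77, 1.29 and 1.05 and all 3 were called.

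Of the 6 type VI genes, 3 rose with P4 against OIL under DOX and 2 under PBS, and 0 fell in either arm. Of all tested genes, 14.7% rose and 15.1% fell under DOX, and 16.2% rose and 15.6% fell under PBS. Col6a2 had 793, 1066 and 1226 CPM in the DOX P4 libraries and 783, 720 and 906 CPM in the PBS P4 libraries, against 264, 376 and 375 CPM in DOX OIL and 232, 424 and 314 CPM in PBS OIL libraries, and rose in both arms (log2 1.60, SE 0.21, under DOX and 1.31, SE 0.21, under PBS). Col6a1 rose as well (log2 0.74 and 0.55), and Col6a6 did under DOX (log2 1.21, SE 0.30).

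Over all classes, P4 against OIL under DOX gave 18 rises and 5 falls among the 45 genes, where 14.7% of all tested genes rose and 15.1% fell. Under PBS it gave 8 rises and 9 falls, against 16.2% and 15.6%, and without PBS OIL replicate 2 it gave 11 and 7. Smooth muscle markers rose in 5 of 8 genes in both arms (list medians log2 0.86 under DOX and 1.08 under PBS), with sums of 14550 to 26500 CPM in DOX P4, against 6460 to 14218 CPM in DOX OIL, and 13460 to 17850 CPM in PBS P4, against 7376 to 8521 CPM in PBS OIL. The 10 adipocyte markers had a median of log2 -1.19 under DOX, with 0 that fell, and of -3.61 under PBS, with 2 that fell. They summed to 83.0 to 433 CPM in DOX P4, against 247 to 734 CPM in DOX OIL, and to 112 to 358 CPM in PBS P4, against 723 to 2968 CPM in PBS OIL. The part of these markers in the collagen values under P4 was not tested beyond the fit with the adipocyte score. The total of 17 calls under PBS was 11 without PBS P4 replicate 1 or 2 and 8 with the adipocyte score as a covariate. That covariate left 3093 calls among all tested genes under PBS, in place of 2509 rises and 2421 falls. The total of 23 calls for P4 against OIL under DOX was 14 without DOX P4 replicate 3. The interaction of P4 with DOX, which tests that contrast between the arms, called 0 of the 45 genes and 0.00645% of all tested genes, with 4 genes of the 45 and 525 of all genes at an unadjusted p under 0.05. DESeq2 called 2 genes of all and limma voom 1, none of them among the 45. The split under library totals was 14 rises and 5 falls under DOX for the 45 genes, and 1675 and 2922 for all genes, against 2271 and 2347 with TMM.

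DOX against PBS under P4 called 0 of the 45 genes and 0% of all tested genes in edgeR. There, 39 of the 45 were higher in DOX P4, among them 11 of 11 fibrillar genes, with a class median of log2 0.41, against -0.01 over all tested genes. Unadjusted p was under 0.05 for 7 of the 45 and for 822 of all genes, and DESeq2 called 10 and limma voom 4 genes, none of them of the 45. Col3a1 gave log2 0.83 (SE 0.34, adjusted p = 0.89 in edgeR), Col1a1 0.75 (SE 0.46) and Col1a2 0.71 (SE 0.32). Smooth muscle markers summed to 14550 to 26500 CPM in DOX P4, against 13460 to 17850 CPM in PBS P4.

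DOX against PBS under OIL called 0 of the 45 genes, where 0.0129% of all tested genes were called in edgeR. Unadjusted p was under 0.05 for 0 of the 45 and for 1253 of all genes, and DESeq2 called 21 and limma voom 1 of all genes, none of the 45. The class medians lay between log2 -0.18 for fibrillar genes and 0.08 for type IV. Without PBS OIL replicate 2 the fibrillar median was 0.21, and Col1a1 was at log2 0.49 without it and -0.58 with it, and Col3a1 at log2 0.42 without it and -0.28 with it.

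Under E2, DOX raised 10 and lowered 10 of the 45 genes, where 20.4% of all tested genes rose and 20.6% fell. The count of fallers was 13 and of risers 9 under library totals, where the split of all genes was 1841 rises and 4060 falls, against 3162 and 3196 with TMM. The E2 by DOX interaction called 4 higher and 6 lower, where 10.1% and 12.8% of all tested genes were called, and under library totals 3 and 7, with 853 and 2594 in all genes, against 1568 and 1985 with TMM. With TMM, these shares of the 45 genes were near those of all genes. The 20 calls for DOX under E2 became 13 without PBS E2 replicate 2 or DOX E2 replicate 1, and the 10 of the interaction became 6 without DOX OIL replicate 2 and 16 in limma voom. Over all tested genes limma voom called 5330 for the interaction, against 1568 higher and 1985 lower in edgeR.

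The lysyl oxidases divided as well: E2 under PBS raised Loxl1, Loxl2 and Loxl4 and lowered Lox and Loxl3. Lox, the founding enzyme, had 27.9, 21.1 and 30.9 CPM in the DOX E2 libraries and 17.5, 11.2 and 17.3 CPM in the PBS E2 libraries, against 23.8, 48.8 and 33.6 CPM in PBS OIL. Lox rose with DOX under E2 (log2 0.80, SE 0.26, adjusted p = 0.025 in edgeR), a call that ended without PBS E2 replicate 2, DOX E2 replicate 1 or DOX E2 replicate 3, at log2 0.62, 0.74 and 0.65. It fell with E2 under PBS (log2 -1.20, SE 0.27), and P4 lowered it under PBS (log2 -1.04, SE 0.26). Under DOX it was not called with E2 (log2 -0.41, SE 0.26) or with P4 (log2 -0.47, SE 0.26).

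Loxl3 (chromosome 6, 83034173 to 83052562) differed from Lox in its response to DOX under E2. It had 5.73, 6.76 and 7.52 CPM in the DOX E2 libraries and 15.2, 28.1 and 22.9 CPM in the PBS E2 libraries, against 40.3, 47.9 and 45.9 CPM in DOX OIL and 35.9, 51.3 and 40.2 CPM in PBS OIL. All DOX E2 libraries were below all PBS E2 libraries, and the share of all tested genes that separate so was not counted. Loxl3 fell with DOX under E2 (log2 -1.72, SE 0.20, adjusted p = 1.9e-05 in edgeR), and the interaction was called (log2 -1.79, SE 0.27, adjusted p = 0.00055). Both calls held on leaving out each library of the groups compared in turn.

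Loxl2 had 280, 97.4 and 129 CPM in the DOX E2 libraries and 105, 72.0 and 99.9 CPM in the PBS E2 libraries, against 16.2, 66.8 and 29.2 CPM in PBS OIL. Its first DOX E2 library stood far above the rest. Its rise with E2 under PBS (log2 1.31, SE 0.46) was lost in 4 of 6 fits that left out 1 library, with log2 0.95 to 1.25 in those, and held without PBS OIL replicate 2 (log2 2.03) or PBS E2 replicate 2. Loxl1 had 81.3, 85.2 and 89.5 CPM in the DOX E2 libraries and 64.6, 76.3 and 68.9 CPM in the PBS E2 libraries, against 20.1, 62.8 and 31.9 CPM in PBS OIL, and its rise under PBS (log2 0.87, SE 0.30) was lost without PBS OIL replicate 1 (log2 0.56) or PBS OIL replicate 3 (log2 0.75), and under library totals (log2 0.68). Loxl4, the lowest of the 5 per exon length in PBS OIL, had 4.70, 4.95 and 6.20 CPM in the DOX E2 libraries and 4.54, 1.95 and 3.93 CPM in the PBS E2 libraries, against 0.758, 1.63 and 1.07 CPM in PBS OIL (log2 1.60, SE 0.41). DOX under E2 gave log2 0.29, 0.87 and 0.60 for Loxl1, Loxl2 and Loxl4, none called. Per exon length, Loxl3 made up 2.22% of the summed level of the 5 genes in DOX E2 and 10.2% in PBS E2, against 26.6% in DOX OIL and 26.0% in PBS OIL, while Loxl2 made up 47.7% in DOX E2 and 36.2% in PBS E2, against 22.3% in DOX OIL and 19.5% in PBS OIL.

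**Figure D5:**
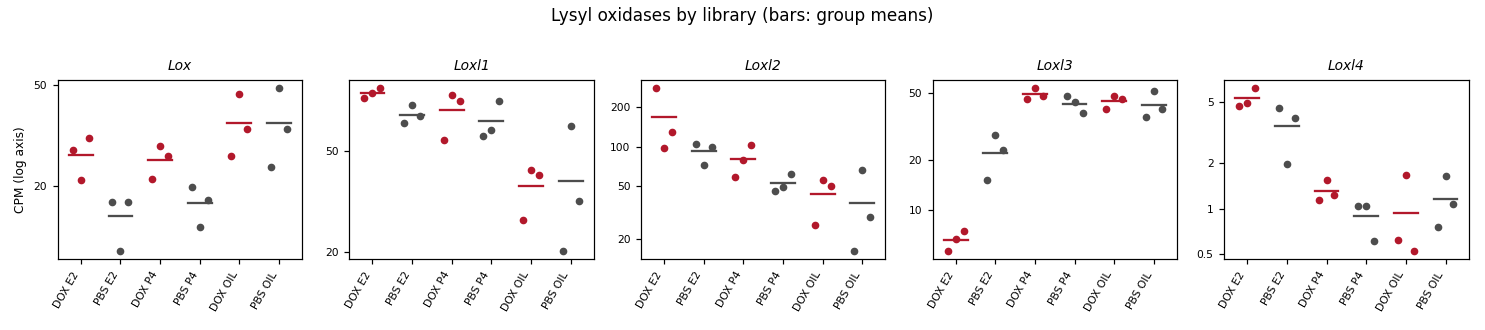
CPM (log axis) of the 5 lysyl oxidase genes in each library, with DOX in red, PBS in grey and bars at group means. Loxl3 is lowest in DOX E2, at 5.73 to 7.52 CPM, where Loxl1 and Loxl4 are highest.

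Among fibril-associated collagens, Col14a1, which binds decorin and the fibril surface, had 16.6, 13.0 and 28.8 CPM in the DOX E2 libraries, against 64.2, 75.1 and 74.7 CPM in the PBS E2 libraries. It fell with DOX under E2 (log2 -1.87, SE 0.42, adjusted p = 0.0025 in edgeR), in all fits that left out 1 library. Its interaction (log2 -1.83, SE 0.57, adjusted p = 0.032) was lost in 7 of 12 such fits, with log2 -1.79 to -1.33 in those, and held without PBS OIL replicate 2, DOX OIL replicate 1 or 3, PBS E2 replicate 1 or DOX E2 replicate 3. Col14a1 ranged from 41.9 to 115 CPM in the PBS OIL libraries and from 127 to 166 CPM in the DOX P4 libraries.

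Col16a1, found near fibrils and at cell surfaces, had 284, 314 and 265 CPM in the DOX E2 libraries and 294, 349 and 278 CPM in the PBS E2 libraries, against 424, 419 and 381 CPM in PBS OIL. It fell with E2 under PBS (log2 -0.41, SE 0.11), and DOX did not pass the test under E2 (log2 -0.09, SE 0.11). Col9a2 fell with DOX under E2 (log2 -0.94, SE 0.34), a call that ended without PBS E2 replicate 2, DOX E2 replicate 1 or DOX E2 replicate 2, at log2 -0.58, -0.98 and -0.83. Col12a1 had 32.7, 59.5 and 53.0 CPM in the DOX E2 libraries and 49.1, 30.0 and 26.0 CPM in the PBS E2 libraries, against 18.6, 130 and 22.6 CPM in PBS OIL, where replicate 2 stood apart. Col20a1 ranged from 11.3 to 35.8 CPM over all libraries and was not called in the E2 comparisons. Col9a3, Col12a1, Col16a1, Col20a1 and Col22a1 were not called for DOX under E2.

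Of the other collagens, Col7a1, the anchoring fibril under epithelia, had 20.7, 26.1 and 22.2 CPM in the DOX E2 libraries and 32.1, 69.8 and 63.2 CPM in the PBS E2 libraries, against 121, 98.9 and 106 CPM in PBS OIL. It fell with E2 under PBS (log2 -0.98, SE 0.26) and fell further with DOX under E2 (log2 -1.25, SE 0.26, adjusted p = 0.0017 in edgeR). Its interaction (log2 -1.17, SE 0.36, adjusted p = 0.031) ended in 8 of 12 fits that left out 1 library, with log2 -1.19 to -0.96 and adjusted p of 0.051 to 0.085, and held without PBS OIL replicate 1, DOX OIL replicate 3, PBS E2 replicate 1 or DOX E2 replicate 2. Col23a1, a transmembrane collagen, had 327, 396 and 296 CPM in the DOX E2 libraries, against 217, 105 and 82.5 CPM in the PBS E2 libraries. It rose with DOX under E2 (log2 1.33, SE 0.32, adjusted p = 0.0039), and its interaction (log2 1.48, SE 0.45, adjusted p = 0.027) was lost in 8 of 12 such fits, at log2 1.23 to 1.49, and held without PBS OIL replicate 2, DOX OIL replicate 1, PBS E2 replicate 1 or DOX E2 replicate 3.

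Col8a2, a short-chain collagen of basement membranes such as that of the cornea, had 54.1, 62.9 and 66.5 CPM in the DOX E2 libraries and 27.9, 23.4 and 30.5 CPM in the PBS E2 libraries, against 10.7, 23.0 and 14.2 CPM in PBS OIL. It rose with DOX under E2 (log2 1.17, SE 0.25, adjusted p = 0.0019 in edgeR). Its partner Col8a1 had 4.70, 7.38 and 6.82 CPM in the DOX E2 libraries and 4.87, 8.08 and 5.55 CPM in the PBS E2 libraries, against 11.5, 16.0 and 15.4 CPM in PBS OIL, so the chains of type VIII moved in opposite directions with E2 (Col8a1 log2 -1.22, SE 0.24, and Col8a2 log2 0.77, SE 0.25, under PBS). The Col8a2 call with E2 under PBS ended without PBS OIL replicate 1, PBS OIL replicate 3 or PBS E2 replicate 3 (log2 0.55, 0.69 and 0.68). Col15a1, a collagen of vessel and muscle basement membranes, had 71.6, 71.3 and 70.6 CPM in the DOX E2 libraries, against 115, 120 and 139 CPM in the PBS E2 libraries, with adjusted p = 0.054 in edgeR (log2 -0.81, SE 0.32), called by DESeq2 and by limma voom. Col18a1, the source of endostatin, gave log2 -0.02 for DOX under E2 (SE 0.14) and rose with P4 by log2 0.70 in both arms (SE 0.14 in each).

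Markers of other cell types moved with DOX under E2, where 20.4% of all tested genes rose and 20.6% fell. The 10 adipocyte markers summed to 12.5, 17.2 and 202 CPM in the DOX E2 libraries, against 5176, 291 and 996 CPM in the PBS E2 libraries, and 10 of 10 fell. Of 6 fibroblast markers 4 fell and 1 rose, with sums of 1652 to 2681 CPM in DOX E2, against 3331 to 5092 CPM in PBS E2. Of 4 mesothelium markers 3 fell, with sums of 84.9 to 158 CPM in DOX E2, against 225 to 241 CPM in PBS E2. Of smooth muscle markers 1 of 8 fell, of epithelial markers 2 of 6 and of endothelial markers 1 of 5 rose, and of macrophage markers 0 of 5 were called. With the adipocyte score as a covariate, 11 of the 45 genes were called for DOX under E2 in place of 20. Over all tested genes 3445 were called, in place of 3162 rises and 3196 falls. The 9 calls lost were those of Col14a1, Col5a2, Col4a3, Col23a1, Col6a2, Col6a4, Col4a2, Col9a2 and Col11a2, each with the same sign as before. Col4a5, Col4a6, Col7a1, Loxl3 and Col27a1 were called with the covariate as well. The score was -5.50, -5.47 and -0.0741 in the DOX E2 libraries, against 4.47, 0.376 and 2.18 in the PBS E2 libraries. It thus differed between the groups compared, and the fit cannot fully separate the score from DOX. The part of these cell types in the collagen differences was not tested beyond that fit.

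Genes that make, bind and degrade collagen were read from lists. For DOX under E2 their counts stand beside the 20.4% of all tested genes that rose and the 20.6% that fell. Of 8 proteoglycans that bind fibrils, 0 rose and 7 fell with DOX under E2, among them Prelp (log2 -2.22), Dcn (decorin, log2 -1.20), Omd (log2 -1.70) and Fmod (fibromodulin, log2 -1.44). Decorin and Lum are also fibroblast markers in the list above. Of 18 genes of collagen breakdown, a list that holds proteases and their inhibitors together, 2 rose and 8 fell. Those with the smallest p were Mmp11 (stromelysin-3, log2 -2.19), the inhibitor Timp2 (log2 -1.46), the uptake receptor Mrc2 (log2 -1.29) and Mmp16 (log2 -1.52). The 2 that rose, Mmp7 and Mmp8, were low, with an average log2 CPM of -1.52 and -1.47. The inhibitor Timp4, among those that fell, was at -0.12.

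Of 26 genes of collagen synthesis, 10 rose and 6 fell, where 20.4% and 20.6% of all tested genes did. P4hb, the disulfide isomerase subunit of prolyl hydroxylase, had 1068, 980 and 1012 CPM in the DOX E2 libraries, against 702, 649 and 619 CPM in the PBS E2 libraries (log2 0.64). The prolyl 3-hydroxylases listed under the symbols Leprel1 (log2 -1.35) and Leprel2 (log2 -0.61) fell, and so did Adamts14 (log2 -1.78), a protease that trims procollagen. With E2 against OIL under PBS, 14 of these 26 rose and 3 fell, where 29.6% of all tested genes rose and 31.9% fell.

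The following counts for DOX under E2 also stand against 20.4% of all tested genes that rose and 20.6% that fell. Basement membrane partners of type IV had 3 rises and 6 falls of 17, with Nid2 (nidogen-2, log2 -1.41) and Lama2 (log2 -1.07) lower and the laminin chain Lamb1 (log2 0.79) higher. Of 14 elastic fibre genes 2 rose and 7 fell, with Mfap2 (log2 -1.82), Efemp1 (log2 -1.41) and Emilin1 (log2 -1.06) lower and Ltbp1 (log2 0.95) higher. Of 8 collagen receptors 1 rose and 3 fell, with Itga2 (log2 1.45) higher and Ddr1 (log2 -0.40), Itga11 (log2 -1.18) and Ddr2 (log2 -0.36) lower. Of 9 TGF-beta genes 2 rose, among them Tgfb2 (log2 1.30), and 0 fell, where 20.4% and 20.6% of all tested genes did.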

How the data were processed

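Per the labels, Trizol was used on homogenised whole uterus and the kit was TruSeq Total RNA-Seq. The authors deposited raw counts, 1 whole number for each gene symbol in each library. The submitters' processing notes name HISAT2 2.1.0 and StringTie 1.3.4d, build GRCm38, and also R 3.4.4 with DESeq2 1.18.1, SAMtools 1.6, Trimmomatic 0.36 and FastQC 0.11.5. How reads were assigned to genes and strands is not given in the sources used here, so reads in the overlap of Col4a1 and Col4a2 may belong to either gene. Libraries differed from others of their group by more than counting noise (chi-square per degree of freedom 15.7 to 69.4 over genes with at least 20 counts), so none was a copy.

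Genes were filtered with filterByExpr, scaled by TMM and fitted in 1 model of 6 groups with edgeR 4.0.16 (robust quasi-likelihood, 12 residual degrees of freedom), tested in 9 comparisons and adjusted by the Benjamini-Hochberg method at 0.05. The SE is the log2 change divided by the square root of F. Exon lengths and positions come from GENCODE M21, and promoters from RefSeq. Alternatives were DESeq2 size factors, library totals, the Wald test of DESeq2 1.42.0, limma 3.58.1 voom with quality weights, no filter and a filter of 1 CPM in 3 libraries, only the groups compared, a replicate block, an adipocyte score covariate and each library left out. For single genes, the fits counted with 1 library left out are those that omitted a library of the groups compared. The fit was tested on simulated data. The members, classes and lists were chosen with earlier results of these data known. Described in full were up to 5 genes a class whose log2 CPM averaged 3 or more and that had the smallest p over DOX under E2, E2 under PBS and their interaction, the 5 lysyl oxidases, the type IV pairs, each gene called for DOX under E2 or in the interaction and up to 4 genes of each related list by smallest p. Col1a1, Col6a5, Col9a3, Col18a1 and Col22a1 were added after their values were seen, and some genes of the related lists are not reported here.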

Additional observations from a re-analysis of the deposited data

Results flagged for a closer look

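For 10 genes the change with E2 against OIL differed between the DOX and PBS arms by the interaction test of edgeR, adjusted over all genes. Lower in the DOX arm were Col14a1 (log2 -1.83), Loxl3 (log2 -1.79), Col4a5 (log2 -1.67), Col4a6 (log2 -1.54), Col5a2 (log2 -1.28) and Col7a1 (log2 -1.17). Higher in the DOX arm were Col23a1 (log2 1.48), Col4a3 (log2 1.0), Col27a1 (log2 0.96) and Col5a1 (log2 0.83). Of these, Col4a3, Col4a5, Col4a6, Col5a2, Col27a1 and Loxl3 kept the call in each fit that left out 1 library of the 4 groups involved.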

How the results depend on the processing

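The count of the 45 genes called moved by over 1.5 times with the adipocyte score as a covariate, to 11 for DOX under E2 (20 before) and to 8 for P4 against OIL under PBS (17 before), and in limma voom to 16 for the E2 by DOX interaction (10 before). The calls over all tested genes moved the same way. They went to 3445 (3162 rises and 3196 falls before), 3093 (2509 and 2421 before) and 5330 (1568 and 1985 before). The cause was not tested. Leaving out 1 library gave 13 to 25 calls for DOX under E2, 11 to 18 and 14 to 24 for P4 against OIL under PBS and DOX, 6 to 14 for the E2 by DOX interaction, and 27 to 31 and 31 to 33 for E2 against OIL under PBS and DOX. The effect of DOX under OIL and under P4 and the interaction of P4 with DOX had 0 calls among the 45 in each alternative, while over all genes the Wald test of DESeq2 called 21, 10 and 2, against 2, 0 and 1 in edgeR. Leaving out 1 library turned the sign of Col1a1 for DOX under OIL (log2 -0.96 to 0.49), of Col3a1 there (log2 -0.58 to 0.42) and of Col1a1 for E2 against OIL under PBS (log2 -1.19 to 0.25), in each case PBS OIL replicate 2. Of 45 pairs of same-numbered libraries, 12 had r over 0.1 in their deviations from the group means (range -0.28 to 0.36). For PBS OIL with DOX OIL, r was 0.28, 0.36 and 0.085 in replicates 1, 2 and 3. A shared batch or pairing was not tested beyond the replicate block. That block gave 20, 30, 32, 19, 22 and 11 calls for DOX under E2, E2 against OIL under PBS and DOX, P4 against OIL under PBS and DOX, and the E2 by DOX interaction. At 6 to 19 reads in all libraries, changes in Col9a1, Col10a1 and Col19a1 were not detectable.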

Other observations

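Col17a1, the hemidesmosomal collagen of stratified epithelium, was high in single libraries of different groups, a pattern noticed after its values were seen. It had 1.24, 13.2 and 1.23 CPM in the DOX E2 libraries, against 1.14, 1.19 and 1.05 CPM in the PBS E2 libraries. It had 1.36, 9.66 and 2.68 CPM in DOX P4, against 1.30, 1.90 and 3.74 CPM in PBS P4, and 1.95, 2.43 and 2.26 CPM in DOX OIL, against 1.65, 3.11 and 8.67 CPM in PBS OIL. Krt5, the basal keratin, had 1.55, 51.6 and 0.863 CPM in DOX E2, against 0.0278, 0.650 and 0 CPM in PBS E2, and it was 16.2 CPM in DOX P4 replicate 2 and 7.09 CPM in PBS OIL replicate 3, the libraries where Col17a1 was highest in those groups. Krt14 was likewise 13.4, 4.89 and 2.19 CPM in DOX E2 replicate 2, DOX P4 replicate 2 and PBS OIL replicate 3. DOX under E2 gave log2 2.20 (SE 0.92, adjusted p = 0.066 in edgeR) for Col17a1, and DESeq2 called it. Without DOX E2 replicate 1 or 3 the edgeR value was called, at log2 2.65 and 2.66. Without DOX E2 replicate 2, the high library, it was log2 0.13 (adjusted p = 0.92 in edgeR), so the difference rested on that 1 library.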
